A study of Homo sapiens with 8 samples.

Results

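Semaphorins, plexins and neuropilins form one guidance system of ligands and receptors, measured here as RNA in floating spheres of lung cancer cells. The 30 genes were chosen by name: every protein-coding gene of the files named as a class 3 to 7 semaphorin, a class A to D plexin or a neuropilin, with PLXNB2 left out. They comprise 20 semaphorins, 8 plexins and 2 neuropilins, of 60106 genes in all and 20298 protein-coding genes. The spheres (pneumospheres) were grown from 4 established non-small cell lung cancer lines. H23, H820 and H1975 are labelled adenocarcinoma and EBC1 squamous cell carcinoma. The PD-L1s group held 1 library per line (n = 4), from spheres given 25 µg/ml of PD-L1s, made as the soluble form of PD-L1, a checkpoint ligand, for 15 min in medium with 0% serum. The untreated group held 1 library per line as well (n = 4). All 8 libraries came from spheres grown without serum, with fibroblast and epithelial growth factors and a B-27 supplement, and each line is a single tumour's model.

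Semaphorins are cell guidance proteins first described in growing axons. Class 3 semaphorins are secreted and mostly bind a neuropilin, which holds the ligand but signals little itself, while an associated plexin carries the signal into the cell. Classes 4 to 7 are tethered to the membrane, class 7 by a lipid anchor, and in general bind plexins directly. Plexins change adhesion and the cytoskeleton. Neuropilins also bind vascular endothelial growth factors. In lung cancer, SEMA3B and SEMA3F are known as candidate tumour suppressors of the short arm of chromosome 3.

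Total counts per library ran from 5559870 to 27524854. For H1975 the PD-L1s library had 22241208 counts and the untreated one 23751862, and for H23 15563010 and 20310707. The PD-L1s library of EBC1 was 4.67 times as deep as its untreated partner (27524854 and 5894946 counts), and that of H820 4.28 times (23783679 and 5559870 counts). Counts of the 30 genes made up 0.126% to 0.219% of a library. Markers went against the label in EBC1: TP63, a squamous lineage factor, had 0.313 and 0.192 CPM in its PD-L1s and untreated spheres, and KRT5, a squamous keratin, was at 0. In H1975, labelled adenocarcinoma, TP63 had 86.6 and 87.1 CPM, most of a squamous marker sum of 97.4 and 92.3 CPM. The other squamous markers (KRT5, KRT6A, SOX2 and DSG3) had at most 5.61 CPM in H1975, with KRT5 at 0.0471 and 0.0436 CPM. SOX2 had 4.05 and 4.97 CPM there and 5.78 and 6.52 CPM in EBC1, where the sum was 6.13 and 6.72 CPM. The adenocarcinoma factor NKX2-1 had 54.0 and 35.5 CPM in H820, 75.1 and 78.4 in H1975, 5.68 and 5.45 in H23 and 0.224 and 0 in EBC1. The sum of the 5 adenocarcinoma markers did not follow the labels either, at 574 and 382 CPM in EBC1 and 7.03 and 7.30 in H23; nearly all of it was KRT7 in EBC1 (572 and 379.6 CPM), and KRT7 had 0.352 and 0.201 CPM in H23. Summed over 5 epithelial markers, the level was 143 and 145 CPM in H23, against 1656 to 4085 CPM in the libraries of the other lines. PTPRC, the pan-leukocyte gene, reached at most 0.402 CPM. The 5 leukocyte markers summed to 6.497 to 151 CPM in a library, most of it CD68, a lysosomal protein not limited to leukocytes, with 4.53 to 151 CPM.

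The lines carried different sets of these genes, and for 0 of the 29 tested did PD-L1s and untreated spheres differ past the threshold. H23 had many class 3 semaphorins and little of either neuropilin. EBC1 was highest for NRP1 and SEMA7A and had 11 of 20 semaphorins under 1 TPM, a level per length. H1975 was highest for SEMA5B and PLXNA2, and H820 was highest for PLXND1, PLXNC1 and a group of class 4 semaphorins. Levels within a gene are given in CPM, counts scaled to the library total after TMM scaling, which corrects for differences in composition. Levels between genes are given in CPM per kb of exon. Of the 30 genes, 29 passed the filter on low counts. The exception was SEMA6D, with 5 counts in all 8 libraries together. SEMA3D passed only through H23 and SEMA5A only through H1975, so those genes could only enter the test by differing between lines.

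**Figure D1:**
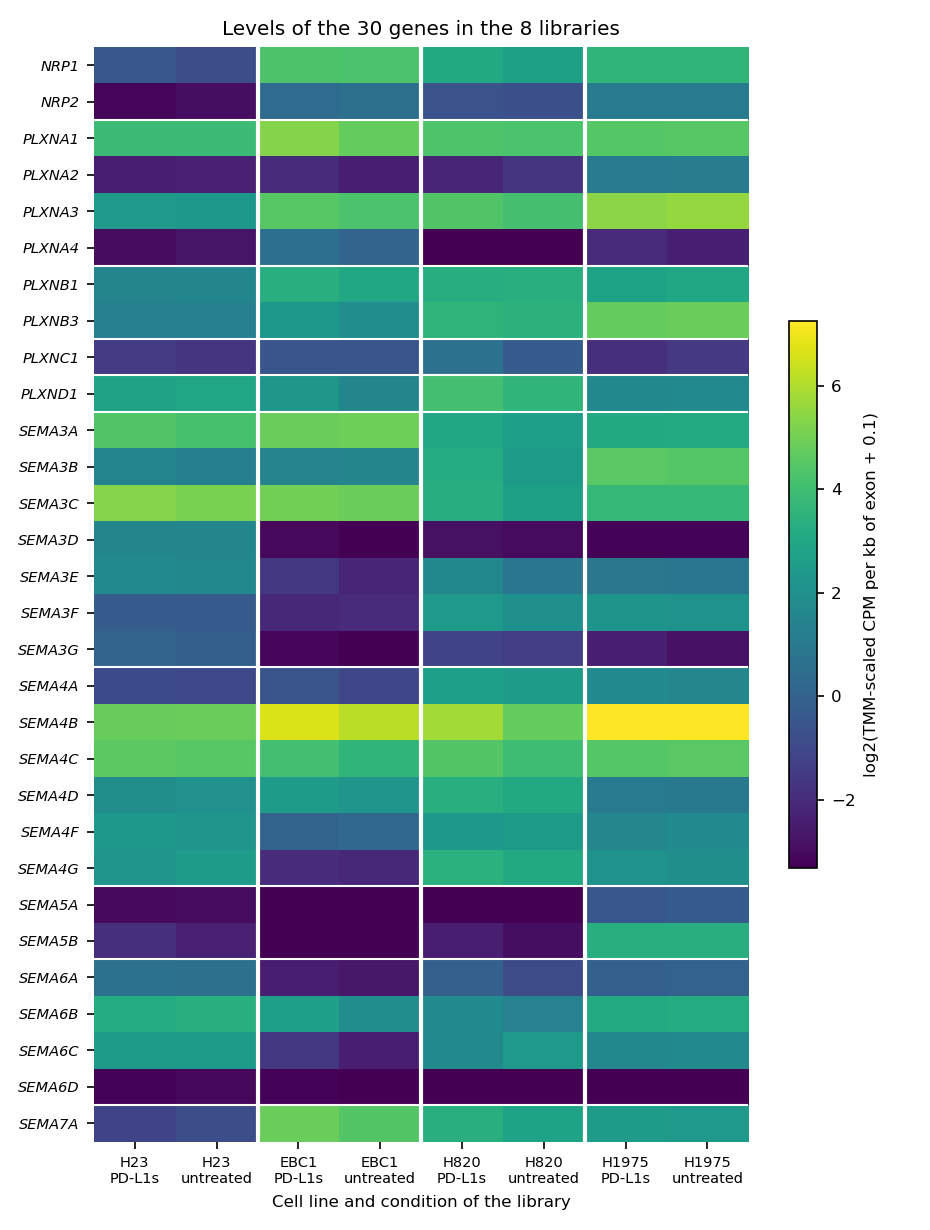
Levels of the 30 genes (rows, grouped by class) in the 8 libraries (columns, PD-L1s left of untreated within each line), as log2 of CPM per kb of exon plus 0.1. The 2 libraries of a line look alike, while rows such as NRP2, SEMA5B and SEMA7A change from line to line.

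A test of any difference among the 4 lines (edgeR's quasi-likelihood test, Benjamini-Hochberg adjustment over 24185 genes, called under 0.05) called 29 of 29 genes, against 86.3% of all genes tested. The lines differed at most genes, and the count alone does not set this family apart. The least firm was SEMA4C (adjusted p = 4.15e-03), and the next was PLXNA1 (adjusted p = 7.45e-05). The spread behind these p-values is that between the 2 libraries of a line, which also differ in treatment, so they do not speak for separate cultures or tumours. When each line was set against the mean of the others, H23 had 12 genes higher and 13 lower, against 34.4% and 27.4% of all genes. EBC1 had 11 higher and 15 lower (28.1% and 26.4% of all genes). H820 had 16 higher and 6 lower (30.6% and 22.9%), and H1975 17 higher and 6 lower (31% and 22.6%). The mean is one of log levels, so a line called higher need not be the highest when another line is near 0. For SEMA4G, H1975 was called higher (log2 1.04) at a mean of 17.5 CPM. The means of the other lines were 42.1 CPM in H820, 22.0 in H23 and 0.624 in EBC1. The number higher in EBC1 was 7 without the EBC1 PD-L1s library. Median absolute log2 differences were 1.61 in H23 and 1.97 in EBC1 for the 29 genes, against 0.82 and 0.82 for all genes. They were 1.14 in H820 and 1.35 in H1975, against 0.75 and 0.71 for all genes. With the 3 genes that had no count in some line held at the 3-count floor, the 4 medians lay between 1.21 and 1.97. EBC1 had 8 genes higher and 18 lower than H1975, where 24.4% and 28.2% of all genes were; without the H1975 PD-L1s library 5 were higher.

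Sequences just before the transcription start are shown for 4 genes, 1 coreceptor and 3 semaphorins. These genes are examples of members near 0 in a line and higher in another. SEMA5A was low even in H1975, its highest line, at 7.44 and 8.85 CPM. Other genes, PLXNA4, SEMA3G, SEMA4G and SEMA6C among them, had that pattern too and are not shown. The RefSeq promoter table (GRCh38.p14) had entries for 26 of the 30 genes, in 47 windows of 250 bases; NRP1, SEMA3A, SEMA6A and SEMA6B had none. Capitals mark each copy of GGGCGG, the GC box known to bind SP1, or of its reverse complement CCGCCC, and copies may overlap. For SEMA5B, which has 3 windows, the one richest in the CG dinucleotide is given.
NRP2: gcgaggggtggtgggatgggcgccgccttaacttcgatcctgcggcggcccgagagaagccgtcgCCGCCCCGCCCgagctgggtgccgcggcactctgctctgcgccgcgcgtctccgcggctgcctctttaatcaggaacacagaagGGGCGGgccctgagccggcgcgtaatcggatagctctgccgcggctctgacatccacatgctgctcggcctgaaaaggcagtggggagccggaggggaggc
SEMA3D: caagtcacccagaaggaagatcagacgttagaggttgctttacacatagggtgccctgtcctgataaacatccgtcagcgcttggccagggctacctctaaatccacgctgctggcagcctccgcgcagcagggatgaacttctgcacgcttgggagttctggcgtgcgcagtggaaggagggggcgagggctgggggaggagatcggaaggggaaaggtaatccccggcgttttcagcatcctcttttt
SEMA5A: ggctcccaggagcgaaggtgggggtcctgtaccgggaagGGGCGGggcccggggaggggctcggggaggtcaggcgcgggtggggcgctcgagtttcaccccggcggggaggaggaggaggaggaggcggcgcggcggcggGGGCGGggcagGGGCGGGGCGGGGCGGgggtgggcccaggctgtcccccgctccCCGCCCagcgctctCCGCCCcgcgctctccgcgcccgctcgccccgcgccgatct
SEMA5B: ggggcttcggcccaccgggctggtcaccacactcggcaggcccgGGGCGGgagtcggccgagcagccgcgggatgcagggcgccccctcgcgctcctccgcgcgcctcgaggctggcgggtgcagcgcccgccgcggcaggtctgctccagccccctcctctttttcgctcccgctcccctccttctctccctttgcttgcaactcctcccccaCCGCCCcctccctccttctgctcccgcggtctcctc

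These windows lie at chr2:205682251-205682500 on the plus strand for NRP2, and on the minus strand at chr7:85187057-85187306 for SEMA3D, chr5:9546076-9546325 for SEMA5A and chr3:123027764-123028013 for SEMA5B. SEMA5A held 7 copies of the box and 33 CG dinucleotides, NRP2 3 copies and 29, SEMA5B 2 copies and 26, and SEMA3D 0 copies and 13. The median over all 35116 windows of that length was 11 CG dinucleotides, and 42.6% of them held the box. Among windows of the family, 29 of 47 held it. No measurement of DNA methylation or of factor binding was used here, so the matches are descriptions of sequence.

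The neuropilins, the shared coreceptors, differed most between H23 and the rest. NRP1 (chr10:33466420-33625190, GRCh37), the main partner of SEMA3A and a coreceptor for VEGFA, had 6.83 and 5.09 CPM in the PD-L1s and untreated spheres of H23. It had 211 and 207 CPM in EBC1, 128 and 131 in H1975 and 93.0 and 68.5 in H820. Both H23 libraries lay below all 6 others, and every step in the order EBC1, H1975, H820, H23 passed the test. Against the mean of the other lines NRP1 was lower in H23 (log2 -4.45 ± 0.18, SE, edgeR adjusted p = 2.13e-13). NRP2 (chr2:206547224-206662857), the coreceptor of SEMA3F and of VEGFC, had 0.1005 and 0.321 CPM in H23. Its levels were 19.2 and 19.8 CPM in H1975, 12.3 and 14.2 in EBC1 and 5.71 and 5.07 in H820. H23 was again below the rest without overlap (log2 -5.63 ± 0.31, SE, edgeR adjusted p = 1.84e-11), and each neighbour in the order H1975, EBC1, H820, H23 differed. The 2 genes therefore shared the lowest line but not the highest one: EBC1 led for NRP1 and H1975 for NRP2. Low epithelial marker levels stood beside low neuropilin RNA in H23, where CDH1, the epithelial cadherin, had 1.66 and 2.01 CPM. The sum of the 4 mesenchymal markers did not single out H23. It was 881 and 958 CPM there, against 1737 and 1763 in H1975, 1456 and 509.7 in H820 and 443 and 397 in EBC1. VIM led that sum in H23 (821 and 903 CPM) and FN1 led it in H1975 (1287 and 1316 CPM). Taken singly, VIM and ZEB1 were highest in H23, CDH2 in EBC1 and FN1 in H820 given PD-L1s. ZEB1 had 31.8 and 30.8 CPM in H23, against 3.72 to 5.54 CPM in the libraries of the other lines. The part of these markers in the difference was not tested. In RNA of whole spheres, fewer cells with a transcript and less of it per cell cannot be told apart.

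**Figure D2:**
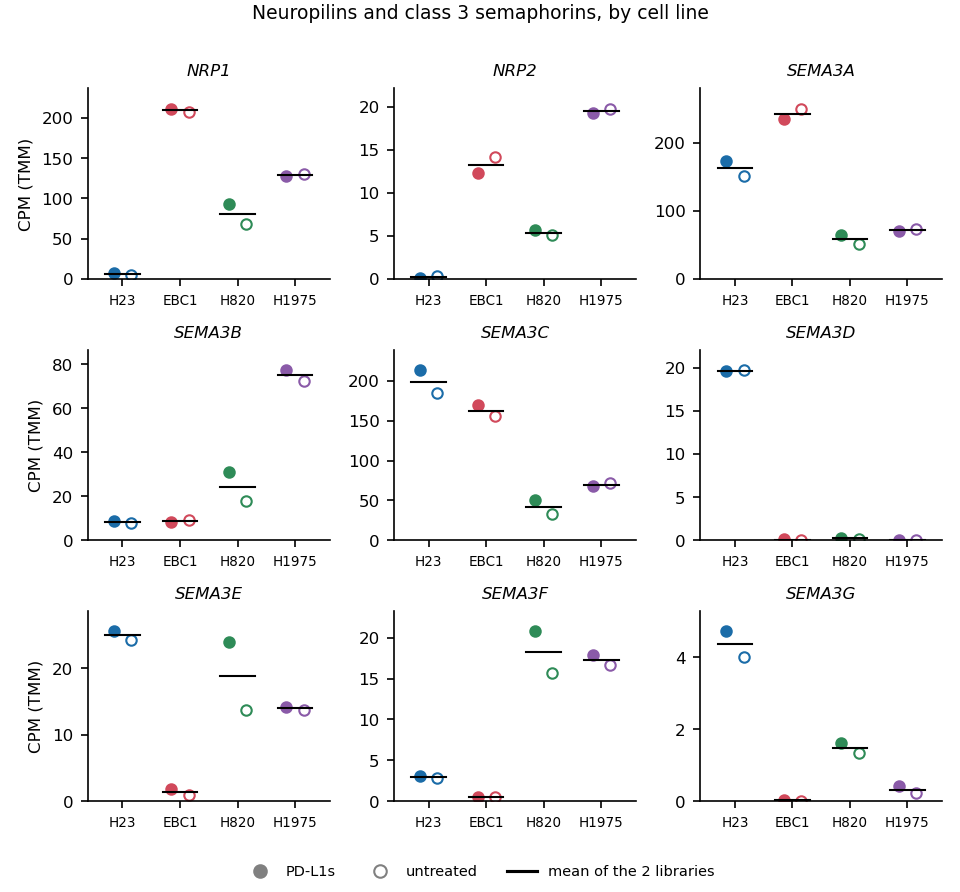
TMM-scaled CPM of both neuropilins and the 7 class 3 semaphorins in each line (filled points PD-L1s, open points untreated, bars the mean of the 2 libraries; axes differ between panels). H23 is lowest for NRP1 and NRP2, while SEMA3D is near 0 outside H23, where it has 19.6 and 19.7 CPM.

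Secreted class 3 semaphorins, the ligands of the neuropilins, were by contrast plentiful in H23. SEMA3C (chr7:80371854-80551675), which signals through neuropilins and PLXND1, had 214 and 184 CPM in H23, 169.6 and 156 in EBC1, 68.4 and 71.2 in H1975 and 50.5 and 33.3 in H820. H23 and EBC1 did not differ by the test, and both lay above the other lines. SEMA3A, the founding repellent of axons, was highest in EBC1 at 234 and 249 CPM. It had 173 and 152 CPM in H23, 70.9 and 73.5 in H1975 and 65.0 and 51.9 in H820, and the last pair of lines did not differ by the test. SEMA3E, which binds PLXND1 without a neuropilin, had 25.6 and 24.3 CPM in H23 and 1.88 and 0.960 in EBC1. The 2 H820 libraries, at 23.9 and 13.7 CPM, and the H1975 libraries, at 14.2 and 13.7, fell between, and of the neighbours in this order only H1975 and EBC1 differed; H23 was above H1975 (edgeR adjusted p = 8.54e-04).

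SEMA3D, another secreted class 3 ligand, was seen almost only in H23. Its levels were 19.6 and 19.7 CPM there, 0.278 and 0.169 in H820, 0.134 and 0 in EBC1 and 0.0471 and 0.0436 in H1975. Over both libraries H23 was 181-fold above EBC1, which had 3 counts (95% counting interval 61.6 to 877), and 434-fold above H1975, which had 2 counts (120 to 3592). SEMA3G, a NRP2 ligand, had 4.72 and 4.01 CPM in H23, 1.62 and 1.35 in H820 and 0.424 and 0.218 in H1975. In EBC1 a single SEMA3G count was found, which puts H23 119-fold above it (95% interval 21.1 to 4730). SEMA3C, SEMA3E, SEMA3A and SEMA3D are neighbours within 4.44 Mb of chromosome 7 (80371854 to 84816171), and their line patterns were not the same: SEMA3A and SEMA3C were high in EBC1, where SEMA3D and SEMA3E were near 0.

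The chromosome 3 pair followed another order. SEMA3B (chr3:50305040-50314610) had 77.3 and 72.4 CPM in H1975 and 31.0 and 17.6 in H820, against 8.46 and 9.02 in EBC1 and 8.74 and 7.62 in H23. It was higher in H1975 than in the mean of the rest (log2 2.66 ± 0.14, SE, edgeR adjusted p = 1.05e-11), and EBC1 and H23 did not differ by the test. SEMA3F (chr3:50192524-50226508), the main NRP2 ligand, had 0.537 and 0.576 CPM in EBC1. Its levels were 3.06 and 2.89 CPM in H23, 17.9 and 16.6 in H1975 and 20.8 and 15.7 in H820, so EBC1 lay below every other library (log2 -4.21 ± 0.29, SE, edgeR adjusted p = 6.70e-10).

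Set against each other on the per-length scale, ligand and coreceptor were most unequal in H23. The 7 class 3 semaphorins summed to 71.7 and 62.9 CPM per kb in the PD-L1s and untreated spheres of H23, where both neuropilins summed to 0.641 and 0.502 CPM per kb. Class 3 RNA was thus 112 and 125 times neuropilin RNA in H23. The same ratio was 3.06 and 3.05 in EBC1, 3.72 and 3.57 in H1975, and 3.84 and 3.47 in H820. Class 3 sums themselves were 63.3 and 62.6 CPM per kb in EBC1, 51.1 and 49.99 in H1975 and 35.1 and 23.7 in H820, the lowest line. Neuropilin sums were 20.7 and 20.5 in EBC1, 13.7 and 13.99 in H1975 and 9.15 and 6.83 in H820. These are RNA sums and say nothing of the proteins.

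Among the A plexins, the receptors that pair with neuropilins, PLXNA1 was high in every line and the others differed more. PLXNA1 had 353 and 241 CPM in EBC1, and 135.3 to 205.3 CPM in the libraries of the other lines. Of these, H23 was lower than H1975 (edgeR adjusted p = 6.12e-03), while H820 between them did not differ from H1975 (adjusted p = 0.395) and just missed the threshold against H23 (adjusted p = 0.05001). PLXNA2 had 22.8 and 23.7 CPM in H1975, against 1.299 and 2.37 in H820, 1.57 and 0.960 in EBC1 and 0.954 and 1.08 in H23. Only H1975 stood out (log2 4.11 ± 0.18, SE, edgeR adjusted p = 1.61e-12), and its neighbours below did not differ by the test. PLXNA3, the partner of NRP2 in the response to SEMA3F, had 459 and 514 CPM in H1975 and 54.3 and 52.6 in H23. Between them lay EBC1 with 243 and 208 CPM and H820 with 224 and 191 CPM, which did not differ by the test. PLXNA4 (chr7:131808091-132333447), a receptor for SEMA3A and for class 6 semaphorins, had 21.6 and 15.9 CPM in EBC1 and 2.21 and 1.48 in H1975. H23 had 0.452 and 0.842 CPM and H820 had no PLXNA4 count in either library. EBC1 was at least 188-fold above H820, taking 3 counts over both H820 libraries as the limit that a count of 0 allows.

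**Figure D3:**
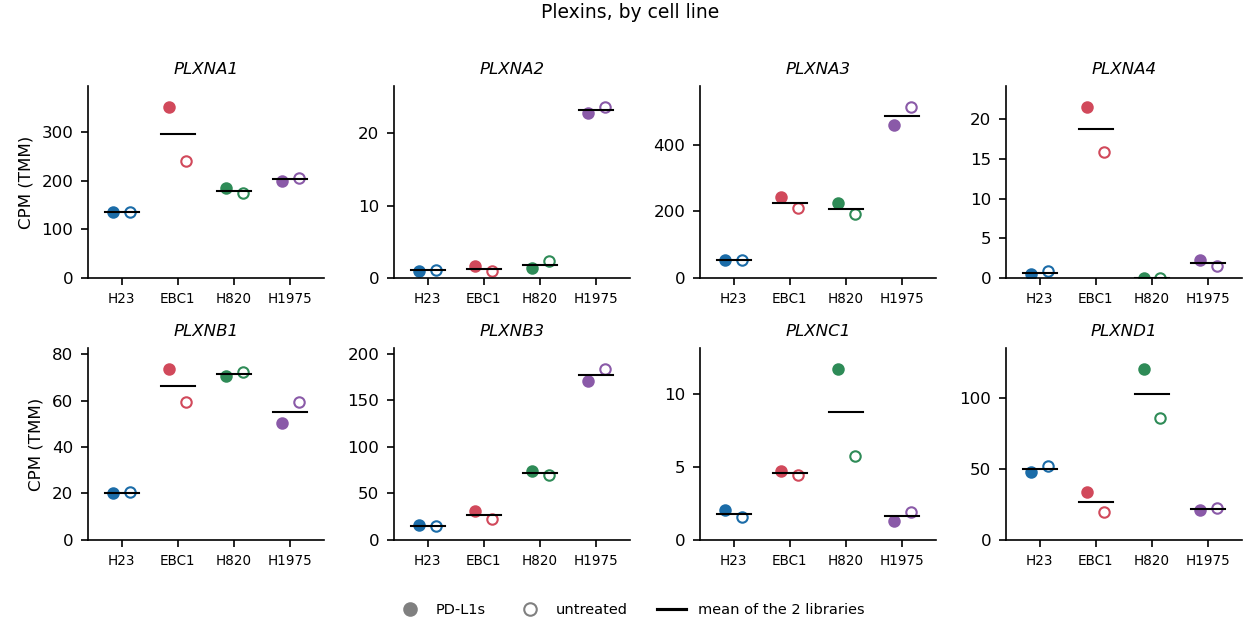
TMM-scaled CPM of the 8 plexins in each line (filled points PD-L1s, open points untreated, bars the mean of the 2 libraries; axes differ between panels). PLXNA2 stands out in H1975 at 22.8 and 23.7 CPM, PLXNA4 in EBC1 at 21.6 and 15.9 CPM, and PLXND1 in H820 at 121 and 85.8 CPM.

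The B and C plexins mostly bind membrane-tethered ligands, and PLXND1, the D plexin, binds secreted ligands with or without a neuropilin as well as class 4 semaphorins. PLXNB1, the receptor of SEMA4D and a partner of MET, had 20.2 and 20.5 CPM in H23 and 50.5 to 73.7 CPM in the other libraries; H23 lay below each other line, and H820 was above H1975 (edgeR adjusted p = 0.0437), with EBC1 between them and called against neither (H23 against the rest log2 -1.65 ± 0.14, SE, edgeR adjusted p = 7.89e-09). PLXNB3, a receptor of SEMA5A, had 170.5 and 184 CPM in H1975, 74.5 and 69.5 in H820, 31.5 and 22.3 in EBC1 and 15.6 and 15.0 in H23. Each step of that order passed the test, but PLXNB3 shares exon sequence on the same strand with SRPK3, whose levels had the same order of lines, so the PLXNB3 count is uncertain. SRPK3 had 1162 and 1108 counts in H1975 and 67 and 92 in H23. PLXNC1, the receptor of SEMA7A, had 11.7 and 5.75 CPM in H820, 4.70 and 4.41 in EBC1, 2.01 and 1.56 in H23 and 1.32 and 1.88 in H1975. PLXND1, the receptor of SEMA3E and SEMA3C, had 121 and 85.8 CPM in H820 and 47.8 and 52.1 in H23. EBC1 had 33.6 and 19.96 CPM and H1975 21.2 and 22.2, and this last pair did not differ by the test. H820 was above the mean of the rest for PLXND1 (log2 1.73 ± 0.14, SE, edgeR adjusted p = 6.99e-09).

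Class 4 semaphorins, membrane ligands that mostly bind B plexins or PLXND1, held the most abundant member. On the per-length scale SEMA4B led the 20 semaphorins in EBC1, H820 and H1975 and was second to SEMA3C in the PD-L1s and untreated spheres of H23, at 27.99 and 28.1 against 40.6 and 35.01 CPM per kb. SEMA4B had 599.6 and 588 CPM in H1975, and EBC1 came next with 398 and 279.8. H820, at 216 and 105, and H23, at 109.9 and 110.4 CPM, did not differ by the test. SEMA4C was the most even member: its 8 libraries lay between 43.0 and 84.6 CPM, and no neighbours in its order of lines differed by the test, while H23 and H1975 were above EBC1 (edgeR adjusted p = 1.86e-03 and 4.00e-03). H820 led for SEMA4A, SEMA4D and SEMA4G. SEMA4D, known as CD100 on lymphocytes, had 89.4 and 76.8 CPM in H820, 49.9 and 40.5 in EBC1, 33.0 and 35.7 in H23 and 17.9 and 16.4 in H1975, with every step called.

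SEMA4A had 22.3 and 20.1 CPM in H820 and 11.8 and 10.2 in H1975, against 2.02 and 1.34 in EBC1 and 1.51 and 1.44 in H23. SEMA4G had 47.2 and 37.05 CPM in H820, 19.5 and 24.4 in H23 and 18.7 and 16.3 in H1975. EBC1 fell far below for SEMA4G, at 0.672 and 0.576 CPM (log2 -5.29 ± 0.27, SE, edgeR adjusted p = 1.40e-11). EBC1 was also lowest for SEMA4F, at 5.64 and 6.91 CPM against 17.7 to 32.8 CPM in the libraries of the other lines (log2 -2.06 ± 0.17, SE, edgeR adjusted p = 7.81e-09).

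Among class 5 semaphorins, which carry thrombospondin repeats, SEMA5B was seen mainly in H1975. SEMA5B (chr3:122628040-122746659) had 54.4 and 52.5 CPM in H1975, 0.904 and 0.521 in H23, 0.464 and 0.169 in H820, and no count in either EBC1 library. H1975 was at least 491-fold above EBC1 by the 3-count limit. SEMA5A (chr5:9035138-9546187) had 7.44 and 8.85 CPM in H1975 and 0.251 and 0.321 in H23, with no count in EBC1 or H820. H1975 was at least 75.05-fold above EBC1 and at least 74.8-fold above H820. SEMA5A was low even in H1975, at 0.633 and 0.753 CPM per kb, against 10.04 and 9.70 for SEMA5B. As SEMA5A passed the filter on low counts only through H1975, its highest line was fixed by that filter.

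Class 6 semaphorins, transmembrane ligands of A plexins, were lowest in EBC1 for SEMA6A and SEMA6C. SEMA6A had 0.806 and 0.576 CPM in EBC1, against 13.3 and 12.8 in H23, 7.77 and 8.33 in H1975 and 7.80 and 4.06 in H820. SEMA6C had 0.493 and 0.192 CPM in EBC1, against 12.3 and 11.8 in H23, 7.15 and 10.995 in H820 and 6.55 and 6.85 in H1975. EBC1 was below every library of the other lines for both (SEMA6A log2 -3.58 ± 0.32, SE, edgeR adjusted p = 2.27e-08). SEMA6B, a PLXNA4 ligand, was present in all lines, from 9.81 CPM in untreated H820 to 41.4 CPM in untreated H23. SEMA7A (chr15:74701630-74726299), which binds PLXNC1 and integrin beta 1, was highest in EBC1 and lowest in H23, the other way from SEMA6A and SEMA6C. It had 103 and 73.9 CPM for EBC1, 34.5 and 24.2 for H820, 19.0 and 18.2 for H1975 and 1.21 and 1.604 for H23, with each step called (EBC1 against the rest log2 3.25 ± 0.14, SE, edgeR adjusted p = 1.15e-12).

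**Figure D4:**
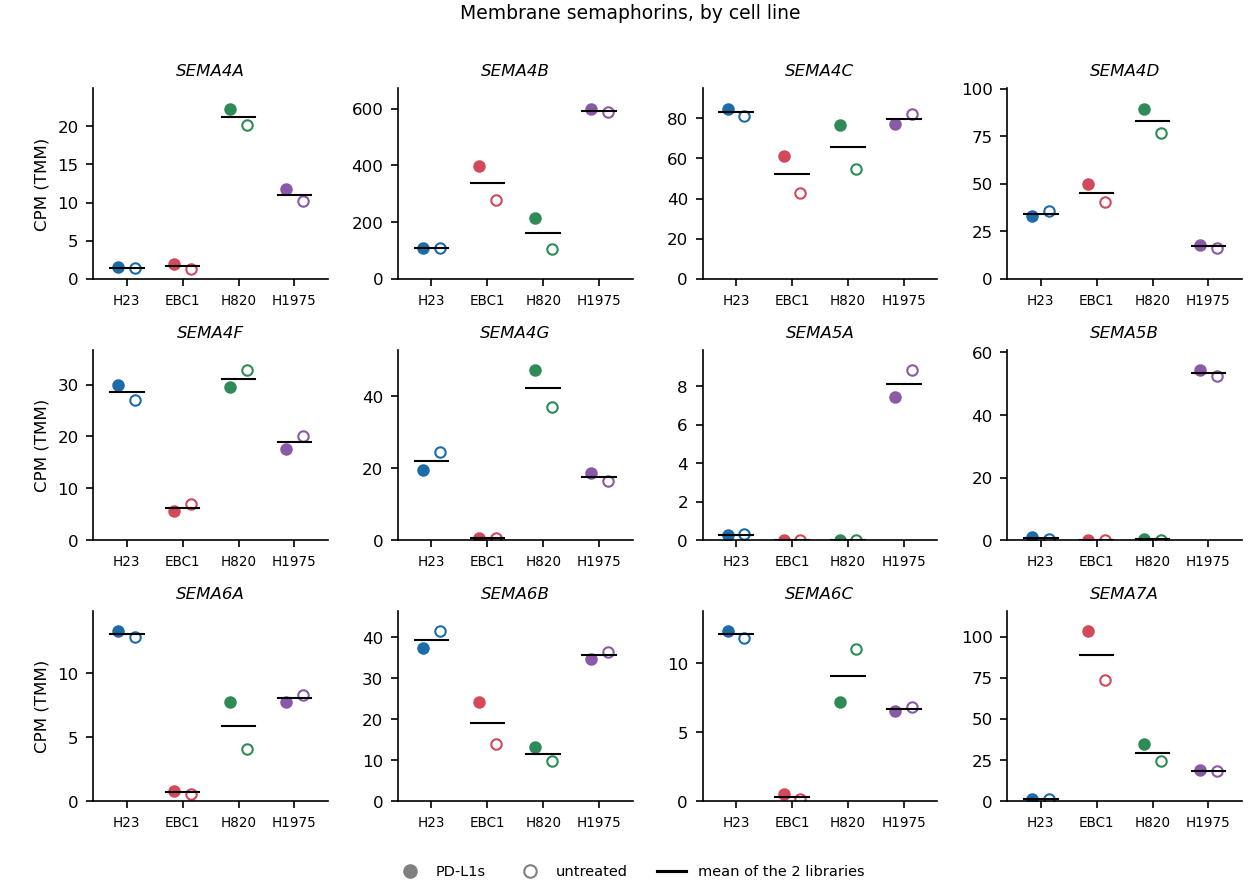
TMM-scaled CPM of 12 semaphorins of classes 4 to 7 in each line (filled points PD-L1s, open points untreated, bars the mean of the 2 libraries; axes differ between panels; SEMA6D is left out, with 5 counts in all). EBC1 is at or near 0 for SEMA4G, SEMA5A, SEMA5B, SEMA6A and SEMA6C and highest for SEMA7A at 103 and 73.9 CPM.

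Ligand and receptor sets were described by counting a gene as expressed in a line when both libraries had at least 1 TPM, computed from the counts and exon lengths. By that rule H23 carried 15 of 20 semaphorins, 5 of 8 plexins and 0 of 2 neuropilins, where 65.4% of all protein-coding genes were expressed. EBC1 carried 9 semaphorins, 6 plexins and 2 neuropilins (57.6% of protein-coding genes), H820 14, 6 and 1 (62.8%), and H1975 16, 6 and 2 (62.2%). The threshold of 1 TPM was not the same CPM per kb in each line. In the PD-L1s libraries, SEMA4A in H23 had 0.423 CPM per kb and 0.986 TPM. PLXNC1 in EBC1 had more CPM per kb, 0.599, but fewer TPM, 0.713. The numbers of expressed genes therefore do not compare the lines at a single level. The call for NRP1 in H23 turned on the threshold, since its PD-L1s and untreated libraries had 1.47 and 0.982 TPM. SEMA4A (0.986 and 0.846 TPM) and SEMA7A (0.805 and 0.959 TPM) lay just under it in H23, as did NRP2 in H820 (0.794 and 0.764 TPM). SEMA5A in H1975 (0.959 and 1.17 TPM) and SEMA6A in H820 (1.21 and 0.682 TPM) had a library on each side of it. In all, 13 of the 30 genes were expressed in every line, where 52.4% of protein-coding genes were: PLXNA1, PLXNA3, PLXNB1, PLXNB3, PLXND1, SEMA3A, SEMA3B, SEMA3C, SEMA4B, SEMA4C, SEMA4D, SEMA4F and SEMA6B. Expression in a single line was counted for 6 of the 30, against 7.48% of protein-coding genes: PLXNA2 and SEMA5B in H1975, PLXNA4 in EBC1, PLXNC1 in H820, and SEMA3D and SEMA3G in H23. SEMA5A and SEMA6D were expressed in no line, as were 28.1% of protein-coding genes.

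These sets leave different ligand and receptor combinations within a line. Of 19 combinations known from textbooks, each a ligand, its plexin and, for 6 class 3 cases, its neuropilin, 2 were complete in H23: SEMA3E with PLXND1 and SEMA4D with PLXNB1. Both need no neuropilin. EBC1 had 6, among them SEMA3A with NRP1 and PLXNA1 or PLXNA4, and SEMA6B with PLXNA4. H820 had 6 as well, among them SEMA7A with PLXNC1 and SEMA4A with PLXND1. H1975 had 11, among them SEMA3F with NRP2 and PLXNA3, SEMA6A with PLXNA2, and SEMA5B with PLXNA1 or PLXNA3, the last known from the mouse retina. The list held no combination with SEMA3B, SEMA3D, SEMA3G, SEMA4B, SEMA4C, SEMA4F, SEMA4G, SEMA6C or PLXNB2. Those with SEMA5A or SEMA6D were complete in no line at 1 TPM. The counts therefore describe this list, and not all pairings open to a line. They also turned on the threshold, which was not the same CPM per kb in each line. In H23 the number was 5 at 0.5 TPM, where NRP1 counted as expressed, and 6 at 1 CPM. EBC1 had 3 at 2 TPM, and at 1 CPM H820 had 10 and H1975 18. In the PD-L1s and untreated spheres of EBC1, PLXNA4 had 1.59 and 1.34 TPM and NRP2 1.43 and 1.88 TPM. The EBC1 combinations with either gene were therefore not complete at 2 TPM. PLXNC1 in H820, the receptor for SEMA7A, had 2.13 and 1.13 TPM.

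Genes that work with the family differed between lines too. Called for any difference among lines were 11 of 11 partner receptors tested, 8 of 8 neuropilin growth factor ligands, 28 of 28 intracellular mediators and 7 of 8 processing proteases, again beside 86.3% of all genes. MET, the receptor tyrosine kinase that B plexins can engage, had 7598 and 6781 CPM in EBC1 and 63.1 and 59.9 in H23. The levels of MET in the lines between were 1704 and 1175 CPM for H820 and 513 and 477 CPM for H1975. MST1R, the related receptor RON, had 70.4 and 49.7 CPM in EBC1 and 2.81 and 1.93 in H23. H23 was thus the lowest line for the neuropilins, PLXNB1 and MET alike. VEGFA, the neuropilin-binding growth factor, had 59.1 and 63.6 CPM in H23, against 494 to 1283 CPM in the libraries of the other lines. HGF, the MET ligand that also binds neuropilins, had 75.1 and 57.4 CPM in H23 and no count elsewhere. VEGFC, a NRP2 ligand, had 35.9 and 33.0 CPM in EBC1 and at most 7.70 CPM in the other lines.

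Among mediators, CRMP1, a cytoskeletal protein downstream of SEMA3A, had 43.6 and 43.4 CPM in H23 and at most 0.0464 CPM elsewhere. Its relative DPYSL2 was present in each line, from 31.8 CPM in untreated H820 to 209 CPM in EBC1 given PD-L1s. FARP1, a relative of the plexin partner FARP2, had 0.0942 and 0.174 CPM in H1975, against 53.0 to 142 CPM in the others. Of the proteases that cleave class 3 semaphorins, FURIN was even, from 43.6 to 70.5 CPM over the 8 libraries. PCSK5, a related convertase, had 61.2 and 68.5 CPM in H1975 and at most 1.51 CPM in other lines. PCSK6 had 37.4 and 21.1 CPM in H820, 15.1 and 13.7 in H23, 0.313 and 0 in EBC1 and 0.188 and 0.131 in H1975.

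The comparison of PD-L1s with untreated spheres asks whether these genes differed 15 min after the ligand was added. None of the 29 genes passed (edgeR with line as a block, n = 4 lines), against 0.0372% of all genes, and 1 had an unadjusted p under 0.05. DESeq2 likewise called 0, with 1 at an unadjusted p under 0.05, and limma-voom 0, with 2. That gene in the edgeR test was SEMA4B, whose values in the PD-L1s and untreated spheres were 216 and 105 CPM for H820, 398 and 279.8 for EBC1, 599.6 and 588 for H1975 and 109.9 and 110.4 for H23. It was higher with PD-L1s in 3 of 4 lines, by log2 0.38 ± 0.15 on average (SE, unadjusted p = 0.0207, edgeR adjusted p = 0.9996). Within H1975 the SEMA4B ratio was only log2 0.03. The larger ratios were those of H820 (log2 1.04) and EBC1 (0.51), the lines with uneven depth. The next by p were SEMA3E (log2 0.31 ± 0.15), SEMA7A (0.27 ± 0.14) and SEMA4C (0.23 ± 0.12), each with an edgeR adjusted p of 0.9996. No partner receptor, growth factor ligand, mediator or protease on the lists passed either.

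Fitted changes were positive for 24 of 29 genes, with a median of log2 0.19, where 59.95% of all genes were positive and the median was 0.04. The lean was largest in EBC1 and H820, the lines with uneven depth, where line and depth cannot be told apart. With only H23 and H1975, whose libraries were of like depth, 12 of 29 were positive and the median was -0.01. Within lines, 1 library stands for each condition and no test is possible. The ratios are given where at least 1 library had 50 counts or more. The median log2 ratio of PD-L1s over untreated was 0.40 for H820 (23 genes) and 0.31 for EBC1 (18 genes), against 0.14 and 0.13 for all genes. It was 0.05 in H23 (21 genes) and -0.05 in H1975 (25 genes), against -0.01 and -0.00 for all genes. Of the 14 genes with enough counts in each line, 0 were higher in 4 lines and 0 were lower in 4. With all counts thinned to the depth of the shallowest library, 22 of 29 were positive with a median of log2 0.10, where the median of all genes was 0.0026.

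SEMA4B in H820 was the only gene of the family that differed by over 2-fold within a line, by log2 1.04 (4655 and 622 counts), where 5.1% of all genes in H820 passed that fold in either direction. The same share of all genes was 1.45% in EBC1, 0.233% in H23 and 0.159% in H1975, each with 0 genes of the family. With thinned counts, or scaling by library size only, SEMA4B stayed under 2-fold there and 0 genes passed. Just under that fold in H820 were PLXNC1 (log2 0.99, 252 and 34 counts) and SEMA6A (0.90, 168 and 24 counts). The lowest ratio in H820 was that of SEMA6C, at log2 -0.60 (154 and 65 counts). Beside these, the 5 epithelial markers summed to 2663 and 1656 CPM in the PD-L1s and untreated spheres of H820, the 4 mesenchymal markers to 1456 and 509.7 CPM, nearly all FN1 (1449 and 504 CPM), and the 5 leukocyte markers to 132 and 67.7 CPM. The part of these markers was not tested. An interaction term asked whether EBC1 responded differently from the lines labelled adenocarcinoma. By edgeR it was called for 0 of 29 genes, against 0.0124% of all genes, with 1 at an unadjusted p under 0.05; limma-voom called 0, with 2.

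**Figure D5:**
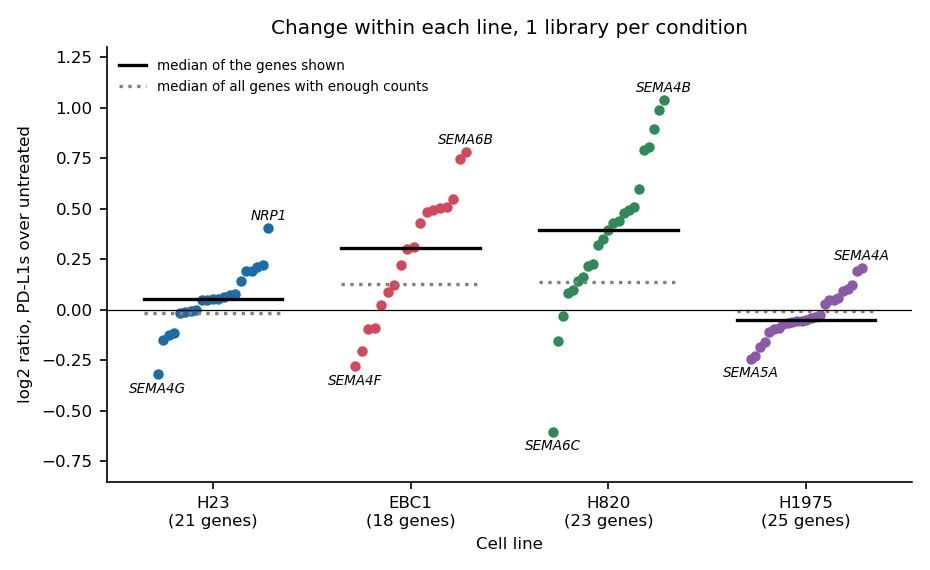
Log2 ratio of CPM in PD-L1s over untreated spheres within each line, with a prior count of 5; each point is 1 gene with 50 counts or more in 1 library, solid lines are the medians of these genes and dotted lines those of all genes. H820 and EBC1, with uneven depth, spread upward to 1.04 and 0.78, while H23 and H1975 stay between -0.32 and 0.40.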

How the data were processed

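RNA was sequenced from 8 libraries, 1 per line and condition, with a strand-preserving total RNA kit that depletes ribosomal RNA, per the labels' protocols. The authors deposited unnormalised counts of read pairs. The submitters' processing notes name STAR 2.7.3a as aligner, GRCh37 as build, and featureCounts (Subread 2.0.0) as counter. Per the file headers, it ran reverse-stranded over exons of GENCODE genes, and a pair overlapping several genes on 1 strand counted for each. Exon lengths, another column of the deposited files, gave CPM per kb and TPM.

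Tests used edgeR 4.0.16 in R 4.3.3 (quasi-likelihood F test, TMM scaling, two-sided) with cell line and treatment as terms, over 24185 genes kept at a minimum count of 10, with Benjamini-Hochberg adjustment and a threshold of 0.05. The pairing by line comes from the labels. Each SE was derived from the test, as the absolute log2 difference divided by the square root of the F statistic. The fit was tested on simulated data with changes of 2-fold or more that were the same in every line. Smaller changes, and changes that differ between lines, were not part of that simulation. Limits for a count of 0 take 3 counts over a line's pair of libraries; these and the 95% intervals cover counting error only. The text names every gene of the family, and of each pathway list up to 2 genes with the smallest p plus MET, VEGFA, FURIN and DPYSL2. Genes, lists and combinations were chosen with earlier results of these data known. Alternatives were DESeq2 1.42.0 and limma-voom (limma 3.58.1), other scalings and filters, thinned counts, protein-coding genes only, libraries left out, other expression thresholds and no block.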

Additional observations from a re-analysis of the deposited data

Results flagged for a closer look

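Levels of 29 genes were examined over the 4 PD-L1s and the 4 untreated libraries, which makes 58 groups of 4. A library was singled out where its gap to the nearest other exceeded Dixon's 95% critical share of the whole range. Draws from a single normal distribution pass that share in about 1 of 20 groups. The lines are not such draws, and the PD-L1s and untreated groups hold the same lines. That rate is therefore no measure of chance here. A library was singled out in 11 cases, in 6 genes. H1975 lay apart for PLXNA2 (gap 0.972 of the range with PD-L1s and 0.938 untreated), for SEMA5A (0.966 and 0.964), for SEMA5B (0.983 and 0.99) and for SEMA3B (0.846, untreated only). EBC1 lay apart for PLXNA4 (0.897 with PD-L1s and 0.907 untreated). H23 lay apart for SEMA3D (0.988 with PD-L1s and 0.991 untreated). In 5 of these 6 genes both libraries of the line were apart. SEMA3D and SEMA5A passed the filter on low counts only through that line, so their gaps were fixed by the filter; without them there were 7 cases in 4 genes among 54 groups, with both libraries apart in 3. Within-line ratios of the 14 genes with enough counts in each line gave 0 cases.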

How the results depend on the processing

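The untreated libraries of EBC1 and H820 were the shallowest, and each line rests on 2 libraries. Leaving out 1 library at a time gave 7 to 12 genes higher in EBC1 than in the rest (11 with all libraries), with 7 without the EBC1 PD-L1s library, and 5 to 10 higher in EBC1 than in H1975 (8 with all), with 5 without the H1975 PD-L1s library. SEMA6A in H820 against the rest ran from log2 -0.11 without the H820 PD-L1s library to 0.86 without the untreated one (0.56 with both), so its call in H820 is not firm. SEMA4D in EBC1 against the rest was log2 -0.0091 when scaled by library size only (0.31 with TMM). That scaling moved the median of all genes to log2 0.54 in H23 and -0.40 in EBC1, and the split of all calls to 12169 higher and 4303 lower in H23 and 4784 and 8921 in EBC1 (8322 and 6618, and 6791 and 6376, with TMM). With H23 and H1975 only, the change with PD-L1s was log2 -0.020 for SEMA7A and -0.0099 for SEMA4C. Genes over 2-fold within H820 numbered 2 at a prior count of 1, and 0 with library size only and with thinned counts. Complete combinations in H23 were 5 at 0.5 TPM, 6 at 1 CPM and 4 with PD-L1s libraries only, in EBC1 3 at 2 TPM, and at 1 CPM 10 in H820 and 18 in H1975. Without the replicate block, that is, without the pairing by line, 0 genes were called for PD-L1s, as with it, and 0 had an unadjusted p under 0.05. The cause of these shifts was not tested. A further 47 values of single genes lost their call under some alternative and kept their direction. Calls for any difference among lines were 29 under each alternative.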
